A study of Mus musculus with 4 samples.

Results

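The vascular endothelial growth factor (VEGF) and platelet-derived growth factor (PDGF) systems were followed through 10 genes chosen by symbol among the 32285 genes counted: the ligands Vegfa, Vegfc, Pdgfa and Pdgfb, the VEGF receptors Kdr, Flt1 and Flt4, the co-receptor Nrp1, and the PDGF receptors Pdgfra and Pdgfrb. All 10 were found, with between 4458 unique molecular identifiers (UMIs, each standing for 1 captured transcript molecule) for Flt4 and 133719 for Flt1 over all kept cells. Single-cell RNA sequencing was run on hindlimb muscle (tibialis anterior with gastrocnemius) from 2-month-old male mice. All mice carried the S100GFP-tg reporter, in which the S100B promoter drives green fluorescent protein and thus lights up Schwann cells, although other cells also passed the gate. The S100GFPtg mice are called WT here, and the S100GFPtg Sod1-/- mice, which lack superoxide dismutase 1, are called Sod1KO. Tissue of 4 mice was pooled per genotype and live cells were sorted into GFP+ and GFP- fractions, so the 4 groups (WT GFP+, Sod1KO GFP+, WT GFP- and Sod1KO GFP-) are 1 library each. No spread between animals can be measured and no test was possible. Intervals below cover counting error only.

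VEGF-A and VEGF-C are secreted ligands that act on receptor tyrosine kinases of endothelium. KDR (VEGFR2) carries most of the growth signal, FLT1 (VEGFR1) binds VEGF-A tightly and limits what reaches KDR, FLT4 (VEGFR3) is the main receptor for VEGF-C in lymphatic endothelium, and neuropilin 1 (NRP1) is a co-receptor. PDGF-B made by endothelium recruits pericytes, which carry PDGFRB, whereas PDGF-A signals through PDGFRA, the classic surface marker of fibro-adipogenic progenitors (FAPs), the interstitial fibroblasts of muscle.

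Depth differed between libraries. The files held 2052 to 7267 cell barcodes per library, of which 1638 (WT GFP-) to 5925 (Sod1KO GFP+) were kept, and the median barcode had from 6152.5 UMIs in WT GFP- to 13825.5 in Sod1KO GFP-. Any 2 libraries shared 1 to 13 barcodes. The targeted gene did not check the genotype labels, since Sod1 was read at 90.7 CPM (UMIs of the gene scaled to a total of 1000000 UMIs) in WT GFP+ and 98.2 in Sod1KO GFP+, and at 123 and 113 in the 2 GFP- libraries. None of the sources used here names the deleted part of the gene, and a tag at the 3′ end can outlast a deletion elsewhere, so every direction below is that of the library labelled Sod1KO. Cells were grouped without the 10 genes and named from markers that also left them out, giving 17 named classes from 24 of 37 clusters. Levels and their ranges are given over libraries with at least 20 cells of a class, unless a smaller group is named. Unnamed clusters, several of which carried markers of 2 cell types, held 18.5% (WT) and 17.9% (Sod1KO) of kept GFP+ cells, and 51.1% and 30.7% of kept GFP- cells.

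The promoters of the 3 VEGF receptors are shown because the receptors were each highest in a different set of endothelial classes. Kdr and Flt1 lie on chromosome 5, from 75932827 to 75979072 and from 147561604 to 147726438, and Flt4 lies on chromosome 11 from 49609679 to 49652739 (GRCm38.p6, RefSeq). RefSeq promoter windows, which run from 250 bases before to 50 bases after a start site, were matched for 8 of the 10 genes, all but Pdgfb and Pdgfrb. Each is written 5′ to 3′ in the direction of the gene, with the letters GGAAG or their complement CTTCC in capitals. These letters are a form of the core of sites for ETS-family factors, and other forms are neither marked nor counted.
Kdr, chr5:75978406-75978705, minus strand: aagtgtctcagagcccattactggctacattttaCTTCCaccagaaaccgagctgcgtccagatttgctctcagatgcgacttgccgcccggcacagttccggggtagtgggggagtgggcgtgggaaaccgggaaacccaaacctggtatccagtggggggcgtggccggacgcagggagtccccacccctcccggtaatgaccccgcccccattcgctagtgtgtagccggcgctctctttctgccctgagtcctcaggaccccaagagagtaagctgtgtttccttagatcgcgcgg
Flt1, chr5:147725962-147726261, minus strand: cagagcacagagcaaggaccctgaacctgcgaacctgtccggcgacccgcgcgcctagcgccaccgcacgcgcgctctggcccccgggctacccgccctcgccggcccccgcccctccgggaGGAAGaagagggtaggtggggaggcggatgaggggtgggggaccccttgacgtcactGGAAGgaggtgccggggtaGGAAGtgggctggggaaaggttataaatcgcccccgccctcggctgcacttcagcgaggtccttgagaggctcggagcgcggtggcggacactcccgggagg
Flt4, chr11:49609429-49609728, plus strand: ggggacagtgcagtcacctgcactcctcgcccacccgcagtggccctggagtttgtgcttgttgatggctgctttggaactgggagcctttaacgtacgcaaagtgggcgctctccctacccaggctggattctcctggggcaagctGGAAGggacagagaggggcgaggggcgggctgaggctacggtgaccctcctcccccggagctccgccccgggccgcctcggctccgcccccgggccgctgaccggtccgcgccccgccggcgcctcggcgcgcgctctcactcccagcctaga
GGAAG or CTTCC occurred 1 time in the Kdr window, 3 times in that of Flt1 and 1 time in that of Flt4, and it occurred in 71.4% of all 32851 windows of this length, so its presence sets none of the 3 apart. The windows of Pdgfra and Vegfc held 0.

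The VEGF receptors were read mainly in endothelium. In capillary-like cells of the GFP+ sort Kdr stood at 978 CPM for WT (95% Poisson interval 937 to 1021) and 880 for Sod1KO (837 to 925), and in those of the GFP- sort at 1011 (985 to 1037) and 911 (897 to 926). In arterial-like cells it was between 382 and 479 CPM in the 4 libraries, in lymphatic-like cells of Sod1KO GFP- 466, and in venous-like cells between 198 and 295. The capillary-like level was the highest in every library, and its interval did not reach that of the next class in any of them. In tenocyte-like cells of the GFP+ libraries Kdr was at 0.331 and 0.381 CPM. After thinning each cell to 1000 UMIs, 54.5% to 60.8% of capillary-like cells had a Kdr UMI, against 0% (of 500 cells, upper 95% binomial limit 0.735%) and 0.0971% of tenocyte-like cells in WT GFP+ and Sod1KO GFP+, which were the deeper cells (median 22473 to 29342 UMIs against 8811 to 11911.5).

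Flt1 did not separate capillaries from arteries. In capillary-like cells it was at 2206 (WT) and 1809 CPM (Sod1KO) among GFP+ cells and at 1905 and 2046 CPM among GFP- cells. In arterial-like cells it was at 1972 and 1825 CPM among GFP+ and at 2122 and 2410 CPM among GFP- cells. Capillary-like cells were the higher in WT GFP+ and arterial-like cells in both GFP- libraries, and in Sod1KO GFP+ the intervals overlapped. Venous-like cells held 977 to 1393 CPM of Flt1, pericyte-like cells 107 to 376 CPM, and lymphatic-like cells of Sod1KO GFP- only 83.6 CPM. Pericyte-like cells also held 327 to 692 CPM summed over 8 shared endothelial markers, none of which was at 0 in any library, and the part these play in their Flt1 level was not tested.

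Flt4 was the receptor of lymphatic endothelium. It was at 684 CPM (647 to 722) in the 106 lymphatic-like cells of Sod1KO GFP-, and at 564 to 831 CPM in the 5, 9 and 15 such cells of the other libraries. Capillary-like cells held 38.8 to 51.9 CPM of Flt4 and arterial-like cells 26.3 to 45.02 CPM, with overlapping intervals in every library but WT GFP+, where capillary-like cells were the higher. In Sod1KO GFP-, lymphatic-like cells carried 44.2% of all Flt4 UMIs of the library, against 21.4% in capillary-like cells. In Sod1KO GFP+ these shares were 28.9% and 20.8%. Capillary-like cells carried the more in the WT libraries, with 34.0% against 8.33% in GFP+ and 32.7% against 29.6% in GFP-. Nrp1, by contrast, was lowest of these classes in lymphatic-like cells, at 14.1 CPM in those of Sod1KO GFP-. It was at 800 to 882 CPM in capillary-like and at 434 to 698 CPM in arterial-like cells. Outside endothelium Nrp1 was broad, with 398 to 486 CPM in pericyte-like, 207 to 447 in perineurial-like and 216 to 391 in macrophage-like cells. Nrp2, the other neuropilin, which pairs with FLT4, was at 681 CPM in the lymphatic-like cells of Sod1KO GFP- and at 62.4 to 71.4 CPM in arterial-like cells. Its levels in capillary-like cells, given under Other observations, lay between these.

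Vegfc, the ligand of FLT4, was highest in arteries. Arterial-like cells of the GFP+ sort held 407 CPM for WT (367 to 451) and 410 for Sod1KO (361 to 464), and those of the GFP- sort 342 (313 to 373) and 361 (343 to 379). Venous-like cells held 62.8 to 91.8 CPM, capillary-like cells 24.8 to 41.1 CPM and tenocyte-like cells 26.7 to 35.7 CPM. Lymphatic-like cells of Sod1KO GFP- held 5.75 CPM. The arterial-like level stood apart from every other class of at least 50 cells in all 4 libraries, and its intervals for the 2 genotypes overlapped within each sort. Arterial-like cells carried 13.0% to 42.6% of all Vegfc UMIs of a library. In the GFP+ libraries the larger tenocyte-like class carried more, with 30.8% in WT and 36.8% in Sod1KO. Arterial-like cells carried 21.2% and 13.0% there.

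**Figure D1:**
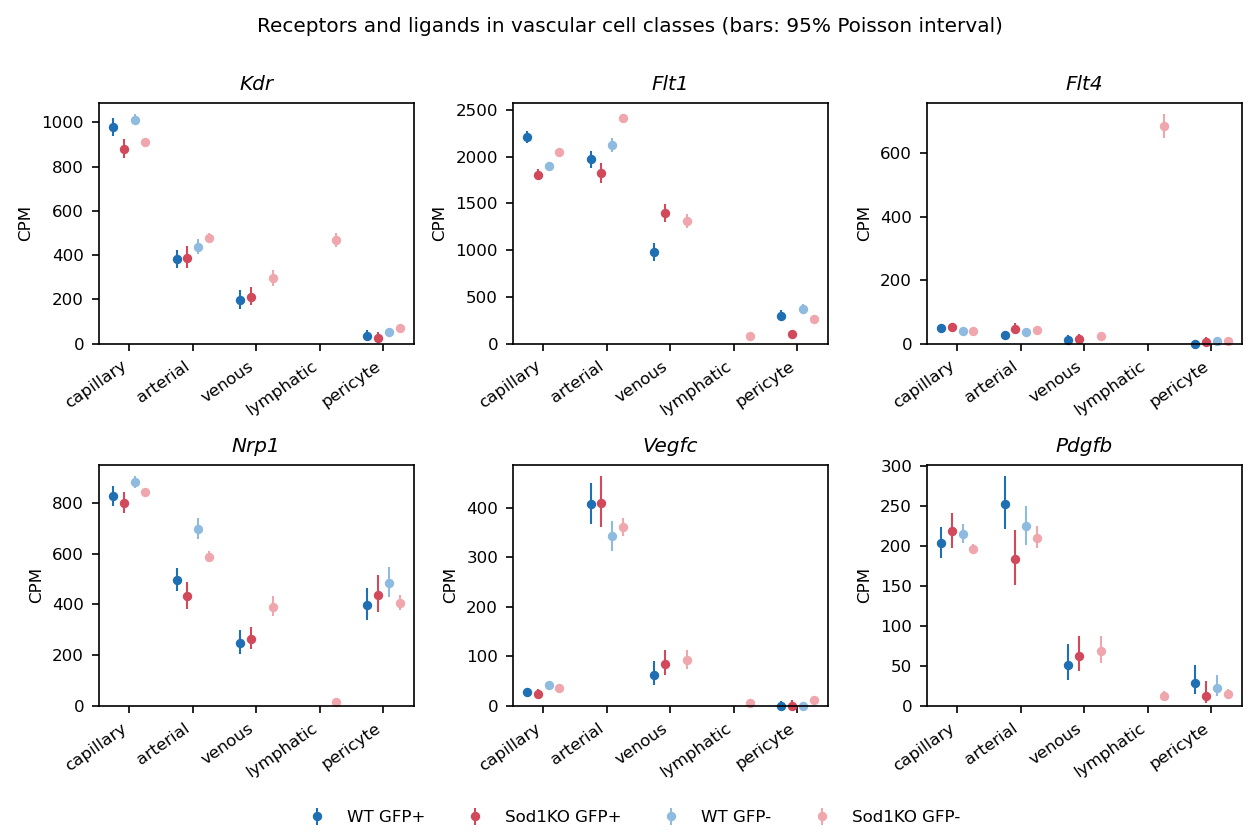
Level of 6 genes, each with its own axis in CPM starting at 0, in 5 vascular cell classes (horizontal axis) with at least 20 cells in a library; points are libraries and bars the 95% Poisson interval, which covers counting error only. Kdr was highest in capillary-like cells (880 to 1011 CPM), Vegfc in arterial-like cells (342 to 410 CPM) and Flt4 in lymphatic-like cells (684 CPM).

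Vegfa was at its highest levels in stromal and perineurial classes and near 0 in Schwann classes. In WT GFP+ it was at 197 CPM (173 to 223) in Hsd11b1 FAP-like cells, a stromal cluster named by the steroid enzyme gene Hsd11b1. It was at 177 in perineurial-like cells (138 to 223), at 127 in Pi16 fibroblast-like cells (111 to 144) and at 100.1 in Myoc FAP-like cells (87.0 to 115). In that library the Hsd11b1 class stood above the Pi16 class, whereas the intervals of the Pi16 and Myoc classes overlapped. The Hsd11b1 class passed 5 of 8 FAP markers. With finer clusters (resolution 2), a cluster of nearly the same size and leading genes instead matched endoneurial (nerve) fibroblast markers best (3 of 5). The naming gave such clusters a FAP name too, so whether this class is FAP or endoneurial is not settled. Schwann classes were near the bottom, with 3.03 and 2.56 CPM in terminal Schwann cell-like (tSC-like) cells and 2.82 and 1.81 in myelinating Schwann cell-like (mSC-like) cells of WT GFP+ and Sod1KO GFP+. Arterial-like cells held 29.5 to 70.7 CPM, smooth muscle-like cells 29.9 to 44.0, satellite-like cells 36.7 to 38.2, and capillary-like cells, the class with the most Kdr, 12.1 to 19.6 CPM of Vegfa. Larger classes could carry more of the transcript at a lower level: smooth muscle-like cells held 21.9% of all Vegfa UMIs of WT GFP+, and capillary-like and arterial-like cells 26.4% and 13.5% of those of WT GFP-.

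Pdgfa was highest in the tSC-like class. That class was named from a list of nonmyelinating or terminal Schwann cell markers, which does not tell these cells apart. Pdgfa was at 832 CPM (811 to 855) in tSC-like cells of WT GFP+ and at 413 (401 to 425) in those of Sod1KO GFP+. This was ahead of smooth muscle-like cells at 214 to 269 CPM and tenocyte-like cells at 160 to 164 CPM. The mSC-like cells held 83.9 and 101 CPM. Of all Pdgfa UMIs, the tSC-like cells carried 38.6% in WT GFP+ and 30.7% in Sod1KO GFP+, from 398 of 4557 and 888 of 5925 kept cells. After thinning, 51.9% (46.9% to 56.9%) of WT and 28.0% (25.1% to 31.1%) of Sod1KO tSC-like cells had a Pdgfa UMI, against 1.13% and 2.10% of capillary-like cells of the same libraries.

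Pdgfb was endothelial, with 183 to 253 CPM in arterial-like and 196 to 218 CPM in capillary-like cells, and the intervals of these classes overlapped in all 4 libraries. Venous-like cells held 51.2 to 69.1 CPM, macrophage-like cells 27.1 to 47.9 and tSC-like cells 32.3 and 26.0 CPM. In pericyte-like cells its receptor Pdgfrb was at 906 (WT, 813 to 1006) and 811 CPM (Sod1KO, 716 to 915) among GFP+ cells and at 1333 (1240 to 1431) and 905 CPM (862 to 949) among GFP- cells. Smooth muscle-like cells, the other mural class, held 123 to 170 CPM.

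Pdgfra marked the FAP and fibroblast classes. It was at 550 to 701 CPM in Myoc FAP-like cells of the 4 libraries, at 414 to 579 in Hsd11b1, 302 to 396 in Inmt and 261 to 277 CPM in Pi16 classes. In both Sod1KO libraries the Myoc class stood above the Hsd11b1 class beyond the intervals, and in WT GFP+ these 2 overlapped. Pdgfrb was read in the same FAP classes at 58.1 to 158 CPM, and in Pi16 fibroblast-like cells at 40.3 to 49.7 CPM. Pdgfra was at 0.457 to 2.43 CPM in the tSC-like cells and at 0.564 to 1.13 CPM in the mSC-like cells, so the class with most Pdgfa had next to none of its receptor.

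**Figure D2:**
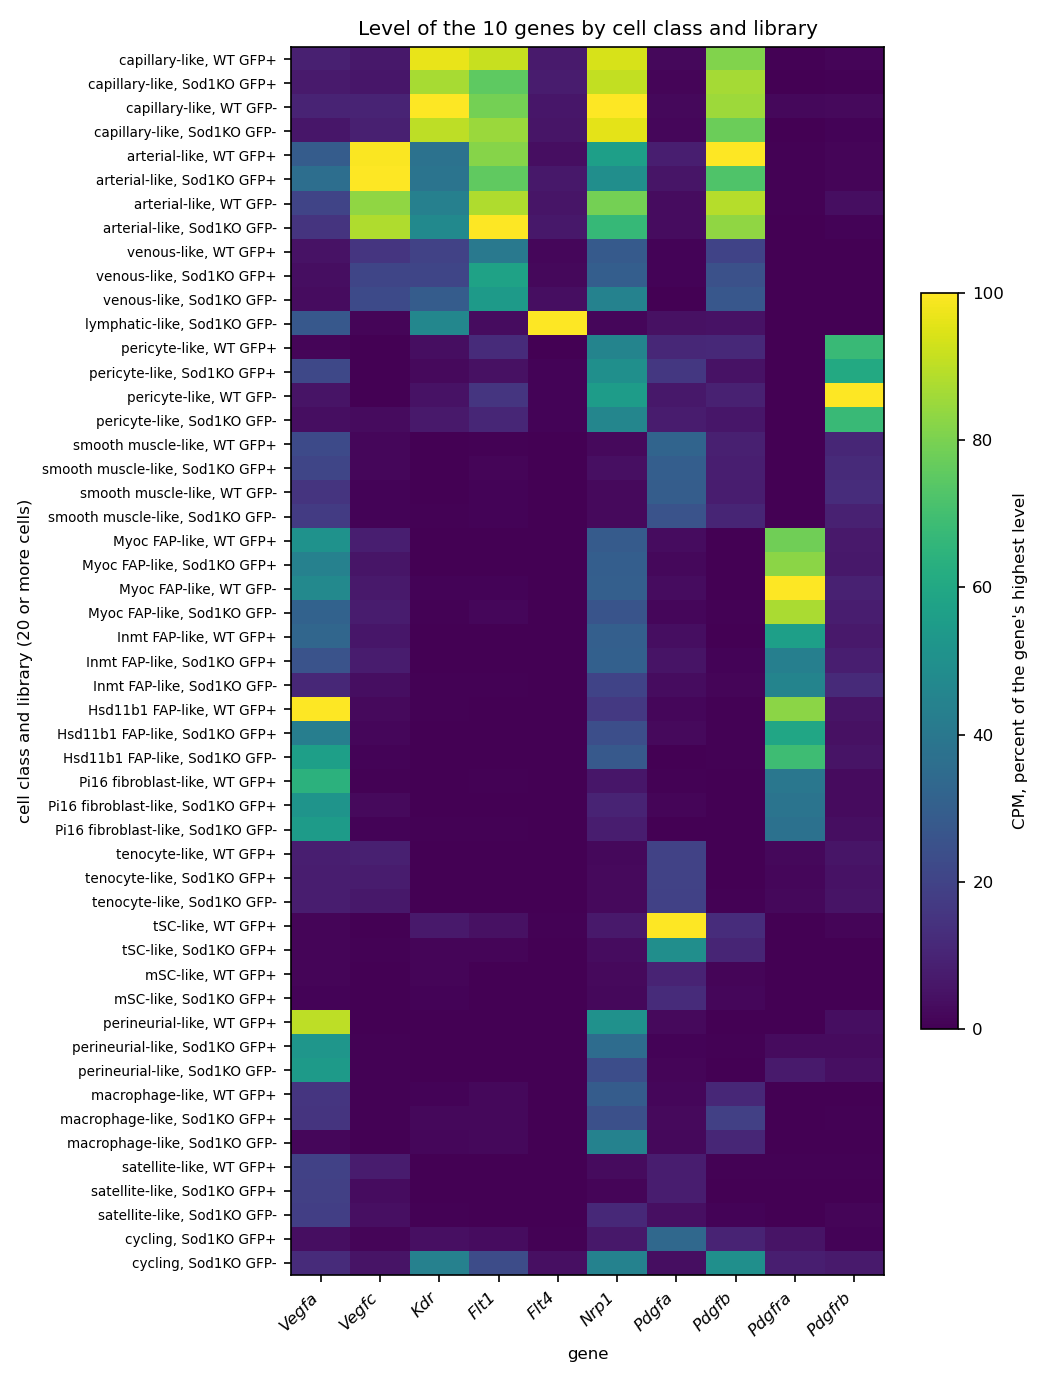
Level of the 10 genes (columns) in each cell class and library with at least 20 cells (rows), shown in CPM as a percentage of the gene's own highest level, since levels of different genes are not compared. Kdr, Flt1, Nrp1 and Pdgfb are high in the capillary-like and arterial-like rows, Pdgfra in the FAP-like rows, Pdgfrb in the pericyte-like rows and Pdgfa in the tSC-like rows, where it was 832 CPM in WT GFP+ and 413 in Sod1KO GFP+.

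Within single capillary-like cells, Kdr and Flt1 were read together about as often as their separate shares would give. At 1000 UMIs per cell, 50.3% of capillary-like cells of WT GFP+ had both Kdr and Flt1, and the product of the 2 single shares was 50.3%. In the other 3 libraries both were read in 52.4%, 41.4% and 46.7%, beside products of 50.6%, 38.6% and 46.6%. Pdgfra and Pdgfrb were read together in 3.36%, 3.94% and 6.49% of Myoc FAP-like cells of WT GFP+, Sod1KO GFP+ and Sod1KO GFP-, beside products of 4.66%, 3.51% and 4.41%. Pdgfb and its receptor were rarely in 1 cell, since 0.690% of capillary-like cells of WT GFP- held both, beside a product of 1.07%.

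The genes whose levels ran most like the members over 51 class-by-library groups, among 8463 genes with at least 50 CPM in some group, are given as a description, since groups of 1 library share its depth. Kdr was most like Egfl7 (Pearson r = 0.97 on log2(CPM + 1)), a secreted endothelial protein that is also one of the naming markers, then Tspan13 and Sox18. Flt1 was most like Adgrf5 (0.96), Gimap6 and Cd93, and Pdgfb was also like Cd93 (0.95), then Dgke and Ssu72. Flt4 was most like Dipk2b (0.93), Klhl4 and Adgrg3, and Nrp1 was like AW112010 (0.87), Mndal and Ifitm3. Pdgfra was most like Dpep1 (0.95), Clec3b and Lum, of which Lum is a naming marker, and Pdgfrb was like Cacna1c (0.90), Arhgef25 and Bmp5. Pdgfa was most like Sox6 (0.86), Insc and Sort1, Vegfc like Bdkrb2 (0.80), Arl6ip5 and Lama3, and Vegfa like Scara3 (0.73), Fn1 and Socs1. The members among themselves ranged up to 0.92 for Kdr with Flt1.

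Whether these levels differed between the genotypes was asked within each class that had at least 50 cells in both libraries of a sort, and a ratio was counted where both libraries together held at least 20 UMIs of the gene. A gene was called where the ratio was at least 2-fold either way. In the GFP+ libraries 11 classes could be compared, which gave 84 ratios, of which 16 were called, beside 6.83% of all gene ratios tested in these classes, with 6 higher and 10 lower in the library labelled Sod1KO (7 and 7 with the mean of per-cell CPM in place of summed UMIs). In the GFP- libraries 3 classes gave 26 ratios, of which 4 were called, beside 10.2% of all gene ratios, with 1 higher and 3 lower (0 and 4 with the mean of per-cell CPM). That mean gave no ratio for the 1 higher call, Vegfc in pericyte-like cells, since WT held 0 UMIs. The calls gathered in few classes: tSC-like cells had 7 of the 16, and no member was called in 4 of the 11 classes.

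**Figure D3:**
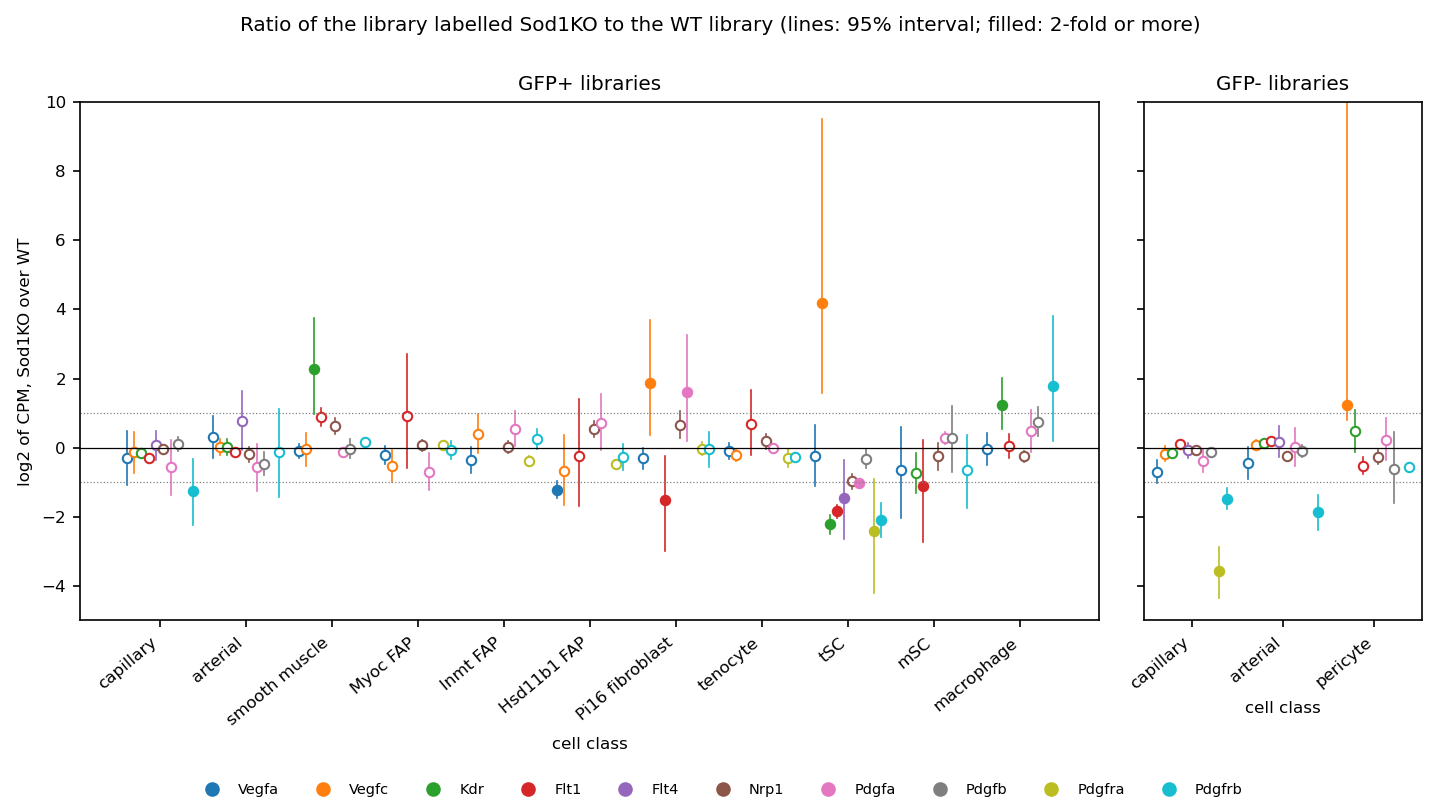
Log2 ratio of CPM in the library labelled Sod1KO over WT (vertical axis) for each member with at least 20 UMIs, by cell class (horizontal axis), in GFP+ and GFP- libraries; lines are 95% intervals for counting error, dotted lines mark 2-fold, and filled points reach it. The interval of Vegfc in GFP- pericyte-like cells has no upper end, since WT held 0 UMIs. The tSC-like column holds 7 filled points, and the arterial-like, tenocyte-like, Myoc and Inmt columns of the GFP+ libraries hold 0.

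In the tSC-like cells of the GFP+ libraries, where 13.1% of all genes tested were called, 7 of 10 members were. Pdgfa went from 832 to 413 CPM (5491 and 4515 UMIs), a log2 ratio of -1.01 (-1.07 to -0.95). Kdr went from 67.9 to 14.5 CPM (log2 ratio -2.22, -2.49 to -1.96), Flt1 from 109 to 30.4 (-1.84, -2.03 to -1.65) and Pdgfrb from 18.6 to 4.39 (-2.09, -2.60 to -1.59). Flt4 (20 and 12 UMIs) and Pdgfra (16 and 5 UMIs) were also lower, and Vegfc went from 1 to 30 UMIs, a log2 ratio of 4.18 with an interval from 1.59 to 9.53. The 30 Vegfc UMIs of Sod1KO lay in 11 of 888 cells. The median log2 ratio of the members was -1.24, beside -0.04 over all genes tested in this class. Different clusters made up the class in the 2 libraries. Cluster 14 held 74.1% of the tSC-like cells of WT GFP+ and 14.9% of those of Sod1KO GFP+, and cluster 7 held 15.8% and 71.8%.

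By cluster the libraries differed to different degrees. In cluster 14 Pdgfa was at 892 CPM (868 to 916) in WT and at 861 CPM (823 to 901) in Sod1KO, a log2 ratio of -0.05 (-0.13 to 0.03). In cluster 7 it was at 417 CPM (364 to 475) in the 63 WT cells and at 307 CPM (295 to 320) in the 638 Sod1KO cells, a ratio of -0.44 (-0.64 to -0.23). In cluster 33, with 27 and 30 cells, it was at 407 and 466 CPM, and in cluster 30, with 13 and 88 cells, at 337 and 104 CPM (16 and 48 UMIs). Cluster 7 was thus below cluster 14 in both libraries. Without clusters 7 and 30, in which the library labelled Sod1KO held over 80% after scaling to its kept cells, the log2 ratio of Pdgfa in the class was -0.09, that of Kdr -0.41 and that of Pdgfrb -0.73.

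The receptors in tSC-like cells sat in few cells. In WT GFP+, 99.3% of the 448 Kdr UMIs and 99.2% of the 718 Flt1 UMIs lay in the 37 of 398 cells (9.30%) that held at least 2 UMIs of the 8 shared endothelial markers. In Sod1KO GFP+ the same was true of 98.1% of 159 Kdr UMIs and 96.1% of 333 Flt1 UMIs, in 49 of 888 cells (5.52%). For Pdgfrb these shares were 97.6% and 81.2%. The ligand Vegfc had its 1 UMI of WT and 17 of its 30 UMIs of Sod1KO in those cells. Only 10.4% and 8.37% of the Pdgfa UMIs lay in those cells, and in the remaining tSC-like cells Pdgfa was at 903 CPM in WT and 414 CPM in Sod1KO, a log2 ratio of -1.13. There Kdr was at 0.550 and 0.300 CPM, with 3 UMIs in each library. Over the whole class the 8 endothelial markers summed to 332 CPM in WT GFP+ and 81.2 in Sod1KO GFP+, and 8 pericyte markers to 545 and 112 CPM, with no marker of either list at 0. Of the 37 WT cells, 35 were in cluster 14. Outside those cells too few UMIs were left for a ratio of Flt1 (6 and 13 UMIs) or Pdgfrb (3 and 9). Nrp1, the co-receptor, was at 60.0 and 30.6 CPM over the class but at 10.6 and 18.8 CPM outside those cells (58 and 188 UMIs, log2 ratio 0.82). With clusters at resolution 2 the ratio turned for Flt1 (0.18 on 33 and 69 UMIs) and Pdgfrb (0.82 on 8 and 26 UMIs).

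**Figure D4:**
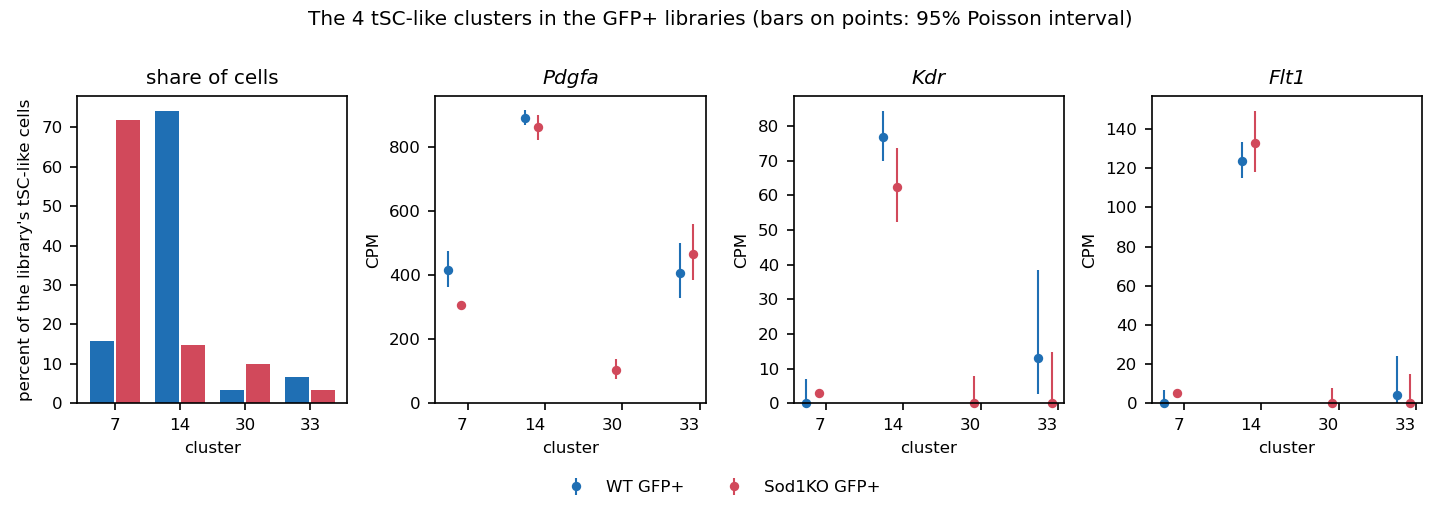
The 4 tSC-like clusters (horizontal axis) in the 2 GFP+ libraries: share of the library's tSC-like cells in percent, and the level of Pdgfa, Kdr and Flt1 in CPM from 0, with 95% Poisson intervals; levels in cluster 30 of WT, with 13 cells, are left out. Cluster 14 held 74.1% of WT and 14.9% of Sod1KO cells, and its Pdgfa level was 892 and 861 CPM.

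Hsd11b1 FAP-like cells held the 1 call in Vegfa. In the GFP+ libraries, where 10.5% of genes tested in this class were called, Vegfa went from 197 CPM (246 UMIs in 78 cells) to 84.2 CPM (312 UMIs in 317 cells), a log2 ratio of -1.22 (-1.47 to -0.98). It was read in 65.4% and 43.2% of the cells, and after thinning in 15.4% and 7.72%. WT GFP- held 1 such cell, so the GFP- sort gave no ratio. The 89 such cells of Sod1KO GFP- lay at 111 CPM (92.5 to 131). The other 6 members tested there were not called. Pdgfra went from 579 to 414 CPM (log2 ratio -0.49) and Nrp1 from 148 to 213 CPM (0.53). With clusters at resolution 2 the Vegfa ratio was -0.77 and no longer 2-fold. There the class held a cluster of 78 WT and 316 Sod1KO GFP+ cells and another of 70 and 158. The latter was led by Cxcl13 and Dkk2, which were among the leading genes of the Myoc class at resolution 1. The ratio at resolution 2 is not given for the first cluster alone. Summed over 6 shared fibroblast markers the class at resolution 1 held 49114 CPM in WT GFP+ and 38323 in Sod1KO GFP+.

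Vegfa was also lower, short of 2-fold or outside the compared classes, in 2 nerve-associated groups of GFP+ cells. In perineurial-like cells it was at 177 CPM in the 42 WT cells and 103 CPM in the 90 Sod1KO cells, a log2 ratio of -0.78 (-1.20 to -0.34). In cluster 8, which carried both myelin and perineurial markers and was left unnamed, it was at 94.99 CPM in 306 and 51.2 CPM in 320 cells, a ratio of -0.89 (-1.08 to -0.70). At resolution 2, cells with Schwann and perineurial markers fell into a cluster of 295 WT and 155 Sod1KO GFP+ cells and another of 11 and 166. The mix thus differed between the libraries, and its part in the Vegfa ratio was not tested. In the other stromal classes the ratio was -0.22 (Myoc), -0.36 (Inmt) and -0.31 (Pi16), and in smooth muscle-like and tenocyte-like cells -0.09 and -0.10, with intervals that included 0 for all of these but Pi16.

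**Figure D5:**
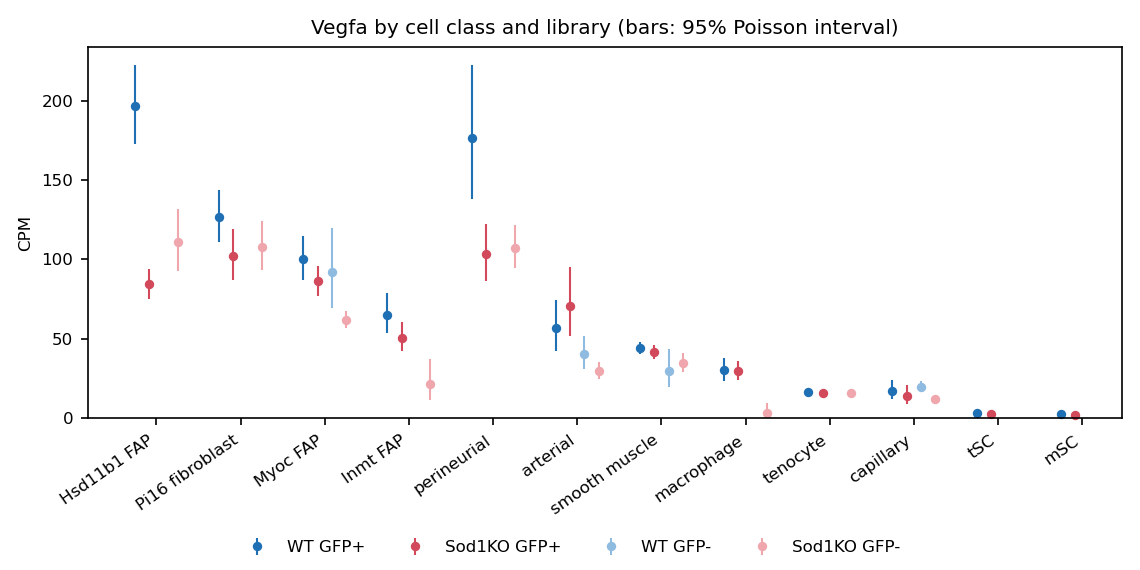
Vegfa in CPM (vertical axis, from 0) by cell class with at least 20 cells in a library; points are libraries, bars the 95% Poisson interval. In Hsd11b1 FAP-like cells WT GFP+ sits at 197 CPM and Sod1KO GFP+ at 84.2 CPM, whereas tSC-like and mSC-like cells stay at or under 3.03 CPM.

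The Inmt FAP-like and Myoc FAP-like classes had 0 calls among 6 and 7 members tested, beside 5.68% and 5.09% of all genes. In Pi16 fibroblast-like cells, where 5.77% of genes were called, 3 of 7 members were, all on few UMIs: Vegfc (5 and 16 UMIs) and Pdgfa (6 and 16) higher, and Flt1 (23 and 7) lower. Their levels stayed under 13 CPM in both libraries, beside 277 and 270 CPM for Pdgfra in the same cells.

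In endothelium 1 member reached 2-fold among GFP+ cells. In capillary-like cells of GFP+, where 4.87% of genes were called, 1 of 9 members was, and in arterial-like cells, where 6.82% were, 0 of 9. Kdr had a log2 ratio of -0.15 in capillary-like cells of both sorts (interval -0.25 to -0.06 among GFP+ and -0.19 to -0.11 among GFP- cells). For Flt1 it was -0.29 (-0.35 to -0.22) among GFP+ and 0.10 (0.07 to 0.13) among GFP- cells, and its direction thus turned with the sort. Vegfc in arterial-like cells had 0.01 (-0.23 to 0.24) in GFP+ and 0.08 (-0.07 to 0.22) in GFP-. Pdgfb in capillary-like cells had 0.10 and -0.13. Wider ratios, short of 2-fold, were those of Vegfa in GFP- capillary-like cells, at 19.6 and 12.1 CPM (-0.70, -1.03 to -0.35), of Flt4 in GFP+ arterial-like cells, on 24 and 28 UMIs (0.78, -0.06 to 1.63), and of Pdgfb in GFP+ arterial-like cells, at 253 and 183 CPM (-0.46, -0.80 to -0.13). The WT GFP- capillary-like cells included cluster 29, 104 cells with 0 in Sod1KO GFP-. There 8 endothelial markers summed to 3420 CPM, against 7229 CPM in the WT GFP- cells of cluster 1, and 6 fibroblast markers to 25339 CPM. These cells are in every GFP- capillary-like ratio above, and in those of all other pathway genes below, Pdgfd and Nrp2 among them. Their part in these ratios is not given. The intervals say nothing of how far animals differ.

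The called members of endothelium were the 2 PDGF receptors, which are not endothelial genes. In GFP- libraries, where 12% of genes were called in capillary-like and 8.89% in arterial-like cells, Pdgfrb was at 32.1 CPM for WT and 11.5 for Sod1KO in the former (log2 ratio -1.48, -1.78 to -1.18) and at 50.4 and 13.7 CPM in the latter (-1.88, -2.39 to -1.36). In capillary-like cells of GFP+ it went from 18.7 to 7.90 CPM (40 and 14 UMIs, -1.24), a direction that turned (0.63) with no doublet removal. The 8 pericyte markers summed to 2580 CPM in WT and 1432 in Sod1KO in the GFP- capillary-like cells, to 2185 and 1294 in the GFP- arterial-like cells and to 1430 and 1284 in the GFP+ capillary-like cells, with no marker at 0, and their part in the Pdgfrb ratios was not tested. Pdgfra in GFP- capillary-like cells went from 87 to 20 UMIs (14.6 to 1.23 CPM). Of those 87 UMIs, 81 lay in cluster 29, which held 104 cells of WT GFP- and 0 of Sod1KO GFP- and in which 6 fibroblast markers summed to 25339 CPM. In cluster 1, with the other capillary-like cells, Pdgfra was at 1.16 and 1.23 CPM and Pdgfrb at 15.1 and 11.5 CPM (log2 ratio -0.39, -0.78 to 0.01).

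In pericyte-like cells, which could be compared in GFP- only and where 8.97% of genes were called, 1 of 7 members was: Vegfc had 0 UMIs in 52 WT cells and 23 UMIs in 209 Sod1KO cells, higher by a log2 ratio of at least 1.22 against a floor of 3 UMIs in WT. Pdgfrb itself was at 1333 and 905 CPM, a log2 ratio of -0.56 (-0.68 to -0.43), and Flt1 at 376 and 262 CPM (-0.52). In GFP+, with 40 and 50 pericyte-like cells, Pdgfrb was at 906 and 811 CPM.

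The remaining GFP+ classes had few calls. In smooth muscle-like cells (5.41% of genes called) Kdr was called on 7 and 21 UMIs (log2 ratio 2.27, but -0.53 with no doublet removal), while Pdgfa was at 269 and 249 CPM (log2 ratio -0.11) and Pdgfrb at 142 and 159 CPM (0.16). In tenocyte-like cells (4.76% called) 0 of 7 members were, and Pdgfa was at 164 and 163 CPM. In mSC-like cells (4.05% called) only Flt1 was, on 21 and 6 UMIs (-1.12, and 7 and 4 UMIs with the stricter cell filter), and Pdgfa was at 83.9 and 101 CPM (0.27, 0.09 to 0.45). In macrophage-like cells (8.37% called) Kdr (22 and 68 UMIs) and Pdgfrb (4 and 18 UMIs) were called higher. The Kdr UMIs lay in 3 of 129 and 5 of 211 cells, and 15 of the 18 Pdgfrb UMIs of Sod1KO in 1 cell. Mean per-cell CPM turned Pdgfrb (-0.45). The 8 pericyte markers summed to 21.3 CPM in WT, with 3 of them at 0, and to 197 CPM in Sod1KO, and the 8 endothelial markers to 92.8 and 169 CPM, with 0 at 0 in either library. Their part in these ratios was not tested. Pdgfb, which macrophages make, was at 28.4 and 47.9 CPM there (0.75, 0.33 to 1.19).

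Other genes of the pathways were taken as 4 lists. Of the ligands and co-receptor Vegfb, Vegfd, Pgf, Pdgfc, Pdgfd and Nrp2, 2 of the 4 tested were called in GFP+ capillary-like cells (4.87% of all genes), both higher: Pgf (placental growth factor, an FLT1 ligand) from 42 to 100 UMIs (log2 ratio 1.52, 0.99 to 2.08) and Vegfb from 10 to 22 UMIs. In the GFP- capillary-like cells Pgf was at 29.2 and 19.8 CPM, a ratio of -0.56 (-0.83 to -0.28), so the direction differed between sorts. In GFP+ arterial-like cells (6.82% of all genes) 2 of 4 were called, Pgf higher (10 and 14 UMIs) and Vegfb lower (16 and 5 UMIs). In GFP- arterial-like cells (8.89% of all genes) 1 of 4 was called, Vegfd, higher (2 and 20 UMIs). Pdgfd, another PDGFRB ligand, was called higher in GFP- pericyte-like cells, from 45.7 to 120 CPM (1.40, 0.81 to 2.04), as 1 of 3 tested (8.97% of all genes). It was also called higher in Hsd11b1 FAP-like cells on 4 and 36 UMIs, as 1 of 4 (10.5% of all genes). Pgf was called higher in tenocyte-like cells on 8 and 26 UMIs, as 1 of 6 (4.76% of all genes). The other classes had 0 calls in this list.

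Of the 7 VEGF-responsive endothelial genes, all tested in capillary-like cells, 1 was called higher in GFP+ (4.87% of all genes called) and 0 in GFP- (12%). It was Esm1, at 14.5 and 33.9 CPM in GFP+ and at 21.5 and 16.9 CPM in GFP-. In arterial-like cells 1 of 6 was called higher in each sort, beside 6.82% of all genes in GFP+ and 8.89% in GFP-. It was Rcan1, a target of calcineurin signalling, on 32 and 65 UMIs in GFP+ (1.58, 0.95 to 2.24) and on 33 and 192 UMIs in GFP- (1.01, 0.47 to 1.59). Rcan1 was called lower in Inmt FAP-like cells, on 63 and 45 UMIs, and in macrophage-like cells, on 197 and 124 UMIs. Dll4 was called lower in GFP- pericyte-like cells, on 18 and 26 UMIs. In tSC-like cells, where 13.1% of all genes were called, 4 of the 6 tested were called lower (Esm1, Dll4, Angpt2 and Nos3). The 8 shared endothelial markers of that class summed to 332 and 81.2 CPM, and their part in this count was not tested.

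Of the 6 genes of ligand processing and binding, 2 were called lower in Hsd11b1 FAP-like cells (10.5% of all genes called): Plau, which encodes urokinase, from 117 to 51.3 CPM (-1.19, -1.50 to -0.86), and Ccbe1, which is needed to process VEGF-C, on 52 and 55 UMIs (41.5 and 14.9 CPM). In Inmt FAP-like cells Ccbe1 was called the other way, from 83.7 to 179 CPM (1.10, 0.82 to 1.38). In GFP- capillary-like cells (12% of all genes called) 3 of 5 were called lower, Plau, Adamts3 and Lrp1, the last from 46.2 to 5.76 CPM. Lrp1 stood at 425 to 777 CPM in the FAP-like classes of the GFP+ libraries, and of the WT capillary-like cells 104 were the fibroblast-marked cluster 29. Lrp1 was also called lower in GFP- arterial-like cells (52 and 44 UMIs) and in tSC-like cells, from 281 to 133 CPM, and Adamts3 in Myoc FAP-like cells (92 and 79 UMIs). Plat, tissue plasminogen activator, was called higher in tSC-like cells, from 17.9 to 45.2 CPM (1.34, 1.04 to 1.64), in mSC-like cells (31 and 58 UMIs) and in macrophage-like cells (3 and 65 UMIs), where Sparc was called higher too (212 and 931 UMIs).

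Of the 9 hypoxia pathway genes, some were called in several classes and in both directions. In Hsd11b1 FAP-like cells, where 10.5% of all genes were called, 3 of 9 were called lower: Adm (adrenomedullin) from 165 to 74.5 CPM (-1.15, -1.42 to -0.88), Vhl and Ankrd37. The median of the list there was -0.72 beside 0.00 over all genes tested. In tSC-like cells, where 13.1% were called, 3 of 8 were called lower, Epas1, Adm and Slc2a1, with a median of -0.82 beside -0.04. Different clusters made up this class in the 2 libraries. Its endothelial and pericyte markers summed to 332 and 545 CPM in WT GFP+, against 81.2 and 112 CPM in Sod1KO GFP+. Their part in this count, and in the tSC-like ratios of Lrp1 and Plat, was not tested. In GFP- pericyte-like cells, where 8.97% were called, 3 of 8 were called higher (Pdk1 on 3 and 27 UMIs, Egln3 on 2 and 23, Adm on 4 and 27) and Slc2a1 lower. In GFP- capillary-like cells, where 12% of all genes were called, 2 of 9 were called higher. These were Pdk1, from 20.3 to 46.1 CPM (1.18, 0.90 to 1.47), and Ankrd37, from 13.6 to 30.1 CPM. In GFP+ capillary-like cells, with 0 calls in this list, Pdk1 was at 29.9 and 44.6 CPM and Ankrd37 at 14.5 and 8.47 CPM. Single calls were Pdk1 higher in Pi16 fibroblast-like and in GFP+ arterial-like cells, Epas1 higher in macrophage-like cells, Egln3 higher in tenocyte-like cells and Adm lower in GFP- arterial-like cells.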

How the data were processed

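Cells of hindlimb muscle were sorted and sequenced with a 3′ droplet kit (GEM Single Cell 3' HT v3). The authors aligned the reads and deposited filtered matrices of UMI counts per gene and cell, 1 per library. The file headers and processing notes name Cell Ranger 7.1.0, the notes also Seurat 4.30 and the build mm10, and the study's methods name another Cell Ranger release and builds. Removal of ambient RNA and doublets described in the methods is not in the deposited counts.

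Cells with over 200 genes and under 10% mitochondrial UMIs were kept. Simulated doublets marked 27 to 366 cells per library (0.8% per 1000 barcodes), which were removed. The 2000 most variable genes without the 10 members gave 30 principal components, a graph of 20 neighbours and Leiden clusters at resolution 1 (Python 3.11.15, leidenalg 0.10.2, scikit-learn 1.9.0, scipy 1.17.1). Clusters were named from 25 marker lists that leave out the members, and the limits of naming (at least 3 markers at 20 CPM and 2-fold) were set after the clusters had been seen. The members, lists and rules were chosen with earlier results of these data known. All 10 members were named in every class, with 4 lists of other pathway genes and the 3 genes of most similar pattern.

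Levels are UMIs of a gene scaled to 1000000 UMIs of a class (CPM), with exact Poisson intervals. Ratios carry exact conditional binomial intervals, and shares exact binomial ones, all at 95%, after thinning to 1000 UMIs per cell. The floor for a count of 0 was 3 UMIs. With 1 library per group no test was run. A ratio needed 50 cells and 20 UMIs and was called at 2-fold. The ratio code was tested on simulated data. Alternatives were 1.5-fold, no low-count filter, median-of-ratios scaling, stricter cells (1000 UMIs, under 5% mitochondrial), no doublet removal, mean per-cell CPM, 5% assumed ambient RNA and resolution 2, and 2 chosen after seeing the data.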

Additional observations from a re-analysis of the deposited data

How the results depend on the processing

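The count of called members in GFP+ was 16. It became 30 at 1.5-fold, 25 with no low-count filter, 10 with clusters at resolution 2 and, in alternatives chosen after seeing the data, 6 without cells holding 2 or more endothelial marker UMIs and 9 without clusters held over 80% by 1 library. The other 5 alternatives gave 11 to 15. In GFP- the count was 4. It became 2 with no doublet removal and 2 without the skewed clusters, and the others gave 3 to 6. Without endothelial-marker cells only 2 of the 3 GFP- classes had enough cells. Directions of called ratios turned in 11 cases, of which 4 then rested on fewer than the 20 UMIs that a ratio needs. With no doublet removal these were Pdgfrb in GFP+ capillary-like cells (0.63) and Kdr in smooth muscle-like cells (-0.53). The stricter cell filter turned Flt1 in mSC-like cells (0.80 on 7 and 4 UMIs), and mean per-cell CPM turned Pdgfrb in macrophage-like cells (-0.45). At resolution 2 the tSC-like ratios of Flt1 (0.18), Flt4 (1.70 on 1 and 6 UMIs) and Pdgfrb (0.82) turned. Without endothelial-marker cells Flt1 (0.24 on 6 and 13 UMIs) and Pdgfrb (0.71 on 3 and 9 UMIs) turned in tSC-like cells. Without the skewed clusters Flt1 in tSC-like cells (0.000623) and Pdgfra in GFP- capillary-like cells (0.080) turned. The cause of these turns was not tested. Vegfa in Hsd11b1 FAP-like cells ranged from -1.26 to -0.77, the latter at resolution 2 with another cluster in the class. Pdgfa in tSC-like cells ranged from -1.13 to -0.09. Of 110 ratios, 106 stayed inside their interval under median-of-ratios scaling and 83 of 109 under mean per-cell CPM. No paired analysis was possible because each group is 1 library. Counts of under about 20 UMIs limit the members at low level.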

Other observations

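Some pathway genes outside the members had similar ratios in both sorts, which are separate libraries of the same pooled mice. Pdgfd was at 605 and 1082 CPM in arterial-like cells of WT GFP+ and Sod1KO GFP+ (log2 ratio 0.84, 0.67 to 1.00) and at 414 and 678 CPM in those of WT GFP- and Sod1KO GFP- (0.71, 0.59 to 0.84). In capillary-like cells Pdgfd was at 148 and 212 CPM in GFP+ and at 167 and 237 CPM in GFP-. Nrp2 in capillary-like cells was at 272 and 387 CPM in GFP+ and at 246 and 348 CPM in GFP-. None of these reached 2-fold, and a difference between the 2 pools of mice cannot be told apart from one of genotype. The WT GFP- capillary-like cells included the 104 cells of the fibroblast-marked cluster 29, and their part in the Pdgfd and Nrp2 ratios was not tested.

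The cycling class held cells with different markers in each sort. The 6 Schwann markers summed to 1804 CPM in Sod1KO GFP+ and to 10.4 in Sod1KO GFP-, with 2 of them at 0, and the 8 endothelial markers to 437 and 3904 CPM. In Sod1KO GFP+ 55 cycling cells held 282 CPM of Pdgfa and 39.7 of Kdr, and in Sod1KO GFP- 85 cycling cells held 29.5 CPM of Pdgfa and 443 of Kdr. WT GFP+ had 3 and WT GFP- 8 cycling cells, too few to set beside them.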
